A study of Homo sapiens with 4 samples.

Results

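AKR1C and UGT2B genes encode enzymes that reduce and conjugate androgens, and 10 genes of androgen metabolism were followed in 22Rv1, an established human line of castration-resistant prostate cancer. The members are AKR1C1, AKR1C2, AKR1C3, UGT2B7, UGT2B10, UGT2B11, UGT2B15, UGT2B17, UGT2B28 and the 5-alpha-reductase gene SRD5A1, which are 10 of 17687 genes named on the array, with 1 probe set each. They were chosen by their signal on these same 4 arrays, since several stood among the largest increases with OCT1 siRNA and were lower with androgen, so all differences below are a description with no test. The cells spent 3 days before hormone in phenol red-free medium with 2.5% charcoal/dextran-treated serum. They were transfected with siControl or with siOCT1, an siRNA against the octamer-binding POU-domain factor OCT1, and 48 h later received dihydrotestosterone (DHT, 10 nM) or its ethanol vehicle for a further 24 h. The 4 groups (siControl with vehicle, siControl with DHT, siOCT1 with vehicle, siOCT1 with DHT) held 1 whole-transcript array each, so nothing below was checked in a replicate, and precision is limited by having single arrays. OCT1 itself was not analysed here, so siOCT1 names the transfection only.

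AKR1C enzymes are cytosolic aldo-keto reductases that move hydrogen onto and off steroid ketones. AKR1C3 makes testosterone from androstenedione, AKR1C2 inactivates DHT to 3-alpha-androstanediol, and AKR1C1 favours the reduction of DHT to the 3-beta-diol and of progesterone at carbon 20. SRD5A1 works upstream and makes DHT or its precursors. UGT2B enzymes sit in the endoplasmic reticulum and attach glucuronic acid to steroids, and UGT2B15 and UGT2B17 are the main route by which prostate cells remove DHT and its metabolites. Both families are clusters of closely related genes, AKR1C on chromosome 10 and UGT2B on chromosome 4, and probes for one copy can bind transcripts of another.

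The upstream sequences show how alike the copies are. RefSeq windows (GRCh38.p14) of the 250 bases before the transcription start were found for 8 of the 10 genes, with 2 starts for AKR1C3. The AKR1C windows are shown because these genes had the largest increases together. They lie at chr10:4963165-4963414 (plus strand) for AKR1C1, chr10:5003858-5004107 (minus strand) for AKR1C2, and chr10:5048531-5048780 and chr10:5094164-5094413 (plus strand) for the 2 starts of AKR1C3. Capitals mark the longest run of bases that all 4 share.
AKR1C1: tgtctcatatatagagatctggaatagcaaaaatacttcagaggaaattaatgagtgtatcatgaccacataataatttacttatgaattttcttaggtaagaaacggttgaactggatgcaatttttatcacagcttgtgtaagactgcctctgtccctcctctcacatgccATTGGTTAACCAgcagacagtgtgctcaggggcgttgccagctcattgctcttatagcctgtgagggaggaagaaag
AKR1C2: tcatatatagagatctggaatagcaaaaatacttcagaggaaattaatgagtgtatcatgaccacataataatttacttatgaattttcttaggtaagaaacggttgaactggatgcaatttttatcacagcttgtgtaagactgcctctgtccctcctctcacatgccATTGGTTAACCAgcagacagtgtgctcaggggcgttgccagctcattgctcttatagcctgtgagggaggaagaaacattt
AKR1C3 first start: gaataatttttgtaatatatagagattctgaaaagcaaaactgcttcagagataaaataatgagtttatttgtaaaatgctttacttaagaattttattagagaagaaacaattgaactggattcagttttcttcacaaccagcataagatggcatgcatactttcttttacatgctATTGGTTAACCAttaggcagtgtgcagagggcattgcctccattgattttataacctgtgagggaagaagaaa
AKR1C3 second start: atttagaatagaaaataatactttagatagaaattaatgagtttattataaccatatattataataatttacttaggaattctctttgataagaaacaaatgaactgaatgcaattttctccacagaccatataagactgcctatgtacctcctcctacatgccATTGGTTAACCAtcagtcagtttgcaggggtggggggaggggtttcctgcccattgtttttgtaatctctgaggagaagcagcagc

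AKR1C1 and AKR1C2 share an unbroken run of 245 identical bases, nearly the whole window, although the genes lie on opposite strands. The AKR1C3 windows were 76.8% (185 of 241 aligned bases) and 78.6% (184 of 234) identical to that of AKR1C1. The 12 marked bases begin 77, 81, 73 and 86 bases before the start and were found, on either strand, in 5 of 35116 RefSeq windows of this length (0.0142%), 4 of them the AKR1C windows above.

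The UGT2B windows are shown because UGT2B10 and UGT2B11, with closely similar upstream sequence, differed in whether they had signal. UGT2B15 lies at chr4:68670653-68670902 (minus strand), UGT2B11 at chr4:69214749-69214998 (minus strand) and UGT2B10 at chr4:68815744-68815993 (plus strand). Capitals in UGT2B15 mark the longest run that the 3 share, and capitals in UGT2B11 and UGT2B10 mark the bases by which these 2 differ from each other. The opening CACT of UGT2B10 is also in capitals, but it reaches past the end of the UGT2B11 window and was compared with nothing.
UGT2B15: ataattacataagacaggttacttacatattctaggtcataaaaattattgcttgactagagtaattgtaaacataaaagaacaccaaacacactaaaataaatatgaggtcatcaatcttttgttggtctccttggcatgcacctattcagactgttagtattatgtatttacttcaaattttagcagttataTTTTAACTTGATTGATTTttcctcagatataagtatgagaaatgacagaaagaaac
UGT2B11: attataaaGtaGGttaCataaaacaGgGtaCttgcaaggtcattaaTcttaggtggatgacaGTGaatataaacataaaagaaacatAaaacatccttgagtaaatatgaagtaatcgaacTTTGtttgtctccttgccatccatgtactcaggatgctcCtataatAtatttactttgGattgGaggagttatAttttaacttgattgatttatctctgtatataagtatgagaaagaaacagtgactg
UGT2B10: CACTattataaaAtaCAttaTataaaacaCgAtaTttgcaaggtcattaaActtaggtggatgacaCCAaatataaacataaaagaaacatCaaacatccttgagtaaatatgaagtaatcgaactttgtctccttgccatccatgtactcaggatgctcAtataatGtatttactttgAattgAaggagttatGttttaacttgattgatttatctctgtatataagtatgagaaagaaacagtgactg

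UGT2B10 and UGT2B11 were 93.1% identical (229 of 246 aligned bases), and UGT2B15 was 78.1% identical to UGT2B11 (182 of 233). The marked run of 18 bases in UGT2B15 was held by these 3 windows alone among 35116. SRD5A1 lacks this likeness: its window was 70.8% G and C, against 28.4% to 40.8% in the windows of the other members and a median of 58% over all windows.

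Short motifs of factors known at such genes were searched on both strands of the 9 member windows. The octamer ATGCAAAT, the letters OCT1 is named for, was in none of them and in 1.63% of all windows, and the HNF1 site was in none and in 0.0484%. The forkhead core TGTTTAC was in the UGT2B15 window alone, on the opposite strand from 183 bases before the start, and in 2.98% of all windows. UGT2B15 was also the 1 member window with AGAACA, one arm of the element bound by the androgen and glucocorticoid receptors, 172 bases before the start, which 12.4% of all windows held. The antioxidant response element core TGACNNNGC was in the windows of UGT2B10 and UGT2B11 and in 10.9% of all windows. No 2 of these matches overlapped. A match is a string of letters, and its absence says only that the letters are not in this window.

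Signals are log2 values on the scale the authors deposited, and the level of one gene cannot be set against that of another because their probes differ. Background was taken as the 95th percentile of 612 negative control probe sets on each array, which was 6.62 with siControl in vehicle, 6.99 with siControl in DHT, 7.39 with siOCT1 in vehicle and 6.91 with siOCT1 in DHT. Of the 10 genes, AKR1C2 and SRD5A1 lay above background on all 4 arrays, 5 more did so on 1 to 3 arrays, and UGT2B7, UGT2B10 and UGT2B28 on none. Where only the dimmer array of a pair was below background, its background replaced its signal and the fold is a lower bound, written "at least". No fold is given where both arrays were below. A difference of 1.5-fold was used to count genes, and a gene was called measured if its highest signal exceeded the median of that value, 6.51, which 8843 genes and 7 of the 10 members did.

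**Figure D1:**
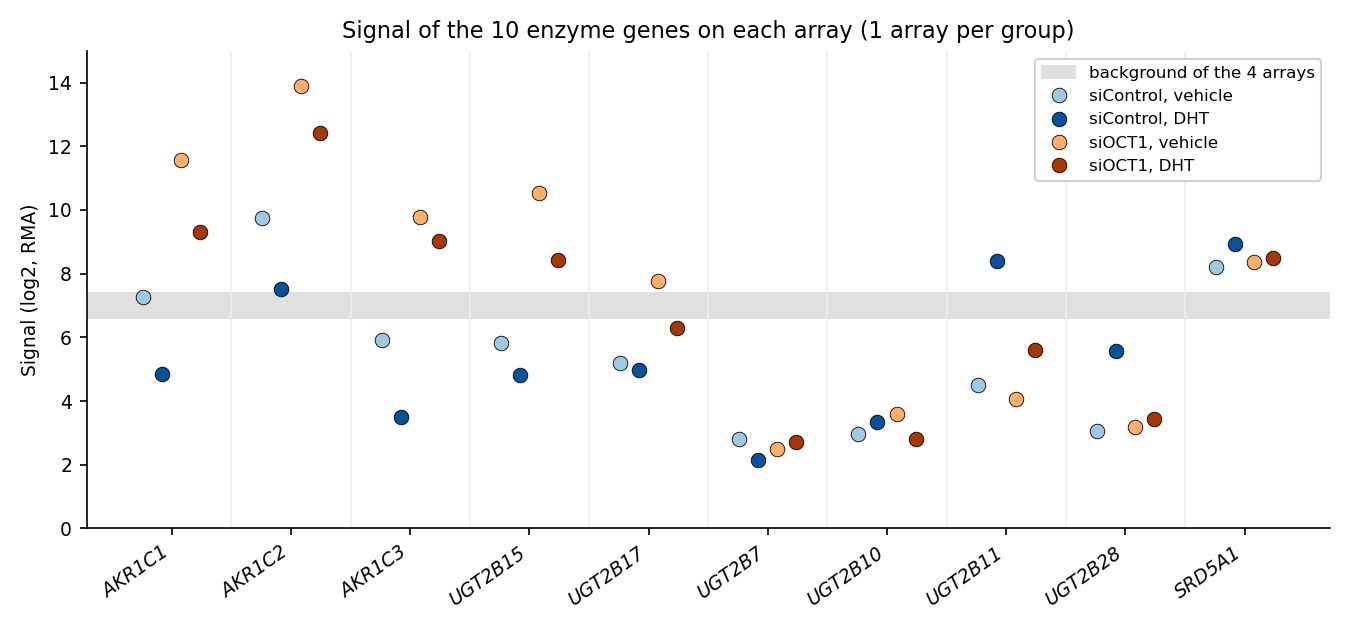
Log2 signal (y axis) of the 10 genes (x axis) on the 4 arrays, 1 point per array, with the grey band spanning the array backgrounds of 6.62 to 7.39. AKR1C1, AKR1C2, AKR1C3 and UGT2B15 have both siOCT1 points above both siControl points, UGT2B11 is above the band on the siControl DHT array alone, and SRD5A1 stays between 8.22 and 8.92. Heights compare arrays within a gene, not genes.

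The AKR1C genes were many-fold higher with siOCT1 in both ligand states. AKR1C2, the DHT-reducing 3-alpha-hydroxysteroid dehydrogenase, had signals of 9.75 with siControl in vehicle, 7.50 with siControl in DHT, 13.90 with siOCT1 in vehicle and 12.42 with siOCT1 in DHT. Both siOCT1 arrays exceeded both siControl arrays, by 17.6-fold in vehicle and 30.3-fold in DHT on the deposited scale. It was the 1 AKR1C gene above background on every array.

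AKR1C1, the progesterone-reducing copy, had signals of 7.27, 4.85, 11.57 and 9.32 in the same order. It was 19.6-fold higher with siOCT1 in vehicle and at least 5.03-fold higher in DHT, where the siControl array was below background. AKR1C3, which makes testosterone, had signals of 5.93, 3.50, 9.78 and 9.04. Neither siControl array showed AKR1C3 above background and both siOCT1 arrays did, which gives bounds of at least 8.91-fold in vehicle and at least 4.14-fold in DHT. Its log2 difference of 5.54 in DHT was the largest increase among the 8843 measured genes in that pair of arrays, but it rests on a siControl signal above only 53.6% of the negative controls. In total RNA of a whole culture, more cells with a transcript and more transcript per cell cannot be told apart.

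The profile of AKR1C2 was close to those of the other AKR1C genes. With each gene's 4 values centred on their mean, the Euclidean distance over the arrays was 0.58 between AKR1C1 and AKR1C2, 0.56 between AKR1C2 and AKR1C3 and 1.11 between AKR1C1 and AKR1C3. UGT2B15 was 1.03 from AKR1C1, nearer than AKR1C3 was. These distances come from 4 arrays, include values below background for AKR1C1, AKR1C3 and UGT2B15, and rest on probe sets that may share transcripts, so they are not independent measures.

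Other copies of the cluster had no signal. AKR1C4, the liver-type 3-alpha-hydroxysteroid dehydrogenase beside AKR1C3, had signals of 3.93, 3.04, 3.79 and 3.60, below background on all 4 arrays. AKR1C8 and AKR1E2 of the same cluster, the first chosen after its values were seen, lay between 3.03 and 3.77 and between 3.22 and 4.90, also below background throughout. How far the probe sets of AKR1C1, AKR1C2 and AKR1C3 read each other's transcripts was not tested.

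**Figure D2:**
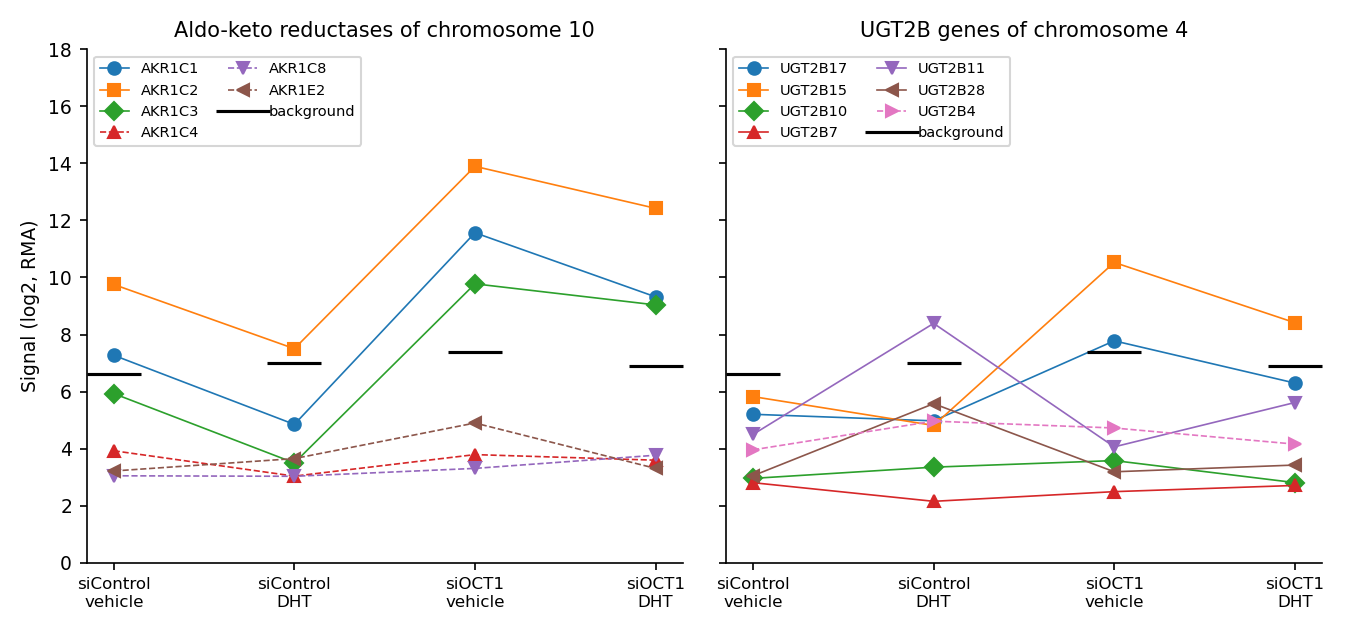
Log2 signal (y axis) on the 4 arrays (x axis) for cluster neighbours, solid lines for members, dashed lines for other copies, and black bars for each array's background; lines join points of 1 gene and mark no order. AKR1C1, AKR1C2 and AKR1C3 reach 9.04 or more on both siOCT1 arrays while AKR1C4, AKR1C8 and AKR1E2 stay at 4.90 or less, and in the UGT2B cluster UGT2B15 and UGT2B11 peak on different arrays.

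Among the glucuronidating enzymes, UGT2B15 was higher with siOCT1 in both ligand states, UGT2B17 in vehicle, and UGT2B11 was lower in DHT. UGT2B15, which clears DHT and its diol, had signals of 5.82 with siControl in vehicle, 4.81 with siControl in DHT, 10.53 with siOCT1 in vehicle and 8.42 with siOCT1 in DHT. It was above background on the siOCT1 arrays alone, at least 14.98-fold higher in vehicle and at least 2.69-fold in DHT. UGT2B17, its closest relative in function, had signals of 5.20, 4.97, 7.78 and 6.30. Only the siOCT1 vehicle array exceeded background, by little, which gives at least 2.23-fold in vehicle and no fold in DHT. The 2 genes are closely similar neighbours in the RefSeq order of the cluster (GRCh38.p14), and how far their probe sets share signal was not tested.

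UGT2B11, whose physiological role in steroid clearance is less settled, ran the other way. Its signals were 4.50, 8.39, 4.06 and 5.62, above background on the siControl DHT array alone. With siOCT1 in DHT it was at least 2.80-fold lower than with siControl, and in vehicle both arrays were below background. UGT2B28, a steroid-conjugating copy next to UGT2B11 in the cluster, also had its highest value on the siControl DHT array, with 3.05, 5.58, 3.19 and 3.43, but no array showed it above background. The distance between these profiles was 1.47, and cross-reaction between the 2 copies was not tested.

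UGT2B7, which conjugates androgen metabolites and many drugs, and UGT2B10, which mainly conjugates amines, had no signal above background. UGT2B7 ranged from 2.15 to 2.81 over the arrays and UGT2B10 from 2.81 to 3.58, so that 8.5% to 33.5% and 31.2% to 55.2% of the negative controls lay below them. Some of their differences passed 1.5-fold, as did those of 48.5% to 56.9% of the negative controls in these pairs of arrays, in either direction. On the siControl DHT array UGT2B10 was below background and UGT2B11 above it, with the closely similar upstream windows shown above. UGT2B4, a further copy of the cluster, lay at 3.96 to 4.96, below background on all arrays.

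SRD5A1, which reduces testosterone and androstenedione at carbon 5, differed little with siOCT1. Its signals were 8.22, 8.92, 8.36 and 8.49, all above background. The siOCT1 difference was 0.14 in vehicle and -0.43 in DHT, neither past 1.5-fold. Its highest array was siControl with DHT, as for UGT2B11 and UGT2B28.

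Counted at 1.5-fold, 6 of the 10 genes were higher with siOCT1 in vehicle, beside 22.9% of measured genes, and 0 were lower, beside 28.7%. With the arrays centred on the positive controls, the shares of measured genes were 31.1% higher and 22.2% lower. In DHT 5 were higher, beside 18.9%, and 2 were lower, beside 26%. Of the 7 measured members alone, 5 were higher and 0 lower in vehicle, and 5 were higher and 1 lower in DHT. Over all genes, measured or not, 19.0% were higher and 18.8% lower in vehicle, and 16.3% and 17.6% in DHT. The same 5 genes, AKR1C1, AKR1C2, AKR1C3, UGT2B15 and UGT2B17, differed upward by 1.5-fold in both ligand states, beside 12.2% of measured genes, and 0 were lower in both, beside 18.7%. UGT2B17 in DHT had both arrays below background, which leaves 4 of the 5 with signal in both ligand states. The sixth gene in vehicle, UGT2B10, and 1 of the lower genes in DHT, UGT2B28, were also below background. Because these contrasts chose the genes, the counts describe the list and support nothing further.

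**Figure D3:**
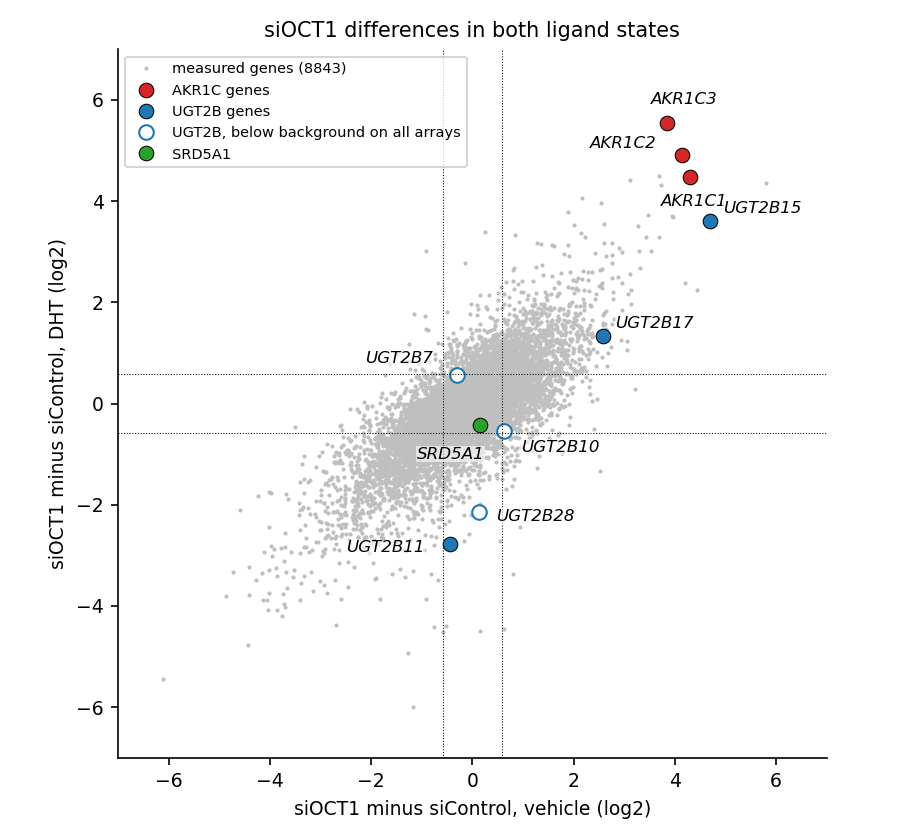
Log2 difference of siOCT1 minus siControl in vehicle (x axis) against DHT (y axis), 1 grey point for each of 8843 measured genes, coloured points for the members, open where a member was below background on all arrays, and dotted lines at 1.5-fold. The AKR1C genes and UGT2B15 lie at the upper right edge with differences of 3.60 to 5.54, and UGT2B11 lies at -0.44 and -2.77.

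With DHT, AKR1C2 had lower signal under both siRNAs, while for AKR1C1 and AKR1C3 the difference was well measured with siOCT1 alone. AKR1C2 was 4.76-fold lower with DHT in siControl cells and 2.77-fold lower in siOCT1 cells, with every signal above background. For AKR1C1 the bound was 1.22-fold lower with siControl, and siOCT1 cells had 4.75-fold less. AKR1C3 was 1.67-fold lower in siOCT1 cells, and its siControl difference of -2.43 lay below background on both arrays. In all 3 genes the highest array was siOCT1 with vehicle and the lowest was siControl with DHT.

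UGT2B15 was 4.32-fold lower with DHT in siOCT1 cells, and its siControl difference of -1.01 lay below background. UGT2B17 was at least 1.83-fold lower in siOCT1 cells and differed by -0.23, below background, in siControl cells. These 2 genes had signal on siOCT1 arrays alone, so their DHT difference could be measured only there. UGT2B11 was the opposite, with at least 3.41-fold more signal under DHT in siControl cells, while its difference of 1.55 in siOCT1 cells lay below background. UGT2B28 differed by 2.53 and 0.24, both below background. SRD5A1 had 1.63-fold more signal with DHT after siControl and 1.10-fold more after siOCT1.

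At 1.5-fold, 5 of the 10 genes were lower with DHT in siControl cells, beside 12.8% of measured genes, and 3 were higher, beside 15.8%. Centred on the positive controls, 8.54% of measured genes were lower and 21.7% higher. In siOCT1 cells 6 were lower, beside 11.8%, and 1 was higher, beside 14.1%. AKR1C1, AKR1C2, AKR1C3 and UGT2B15 were past 1.5-fold lower under both siRNAs, beside 4.37% of measured genes, and UGT2B11 was past it on the higher side under both, beside 4.86%. Of the 5 lower genes in siControl cells, AKR1C3, UGT2B15 and UGT2B7 had both arrays below background, which leaves 2 with signal, and UGT2B28 among the 3 higher genes was below background too. In siOCT1 cells UGT2B10 among the 6 lower genes and UGT2B11, the 1 higher gene, had both arrays below background. The DHT and siRNA contrasts share arrays, so a gene high on the siOCT1 vehicle array alone is counted in both.

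**Figure D4:**
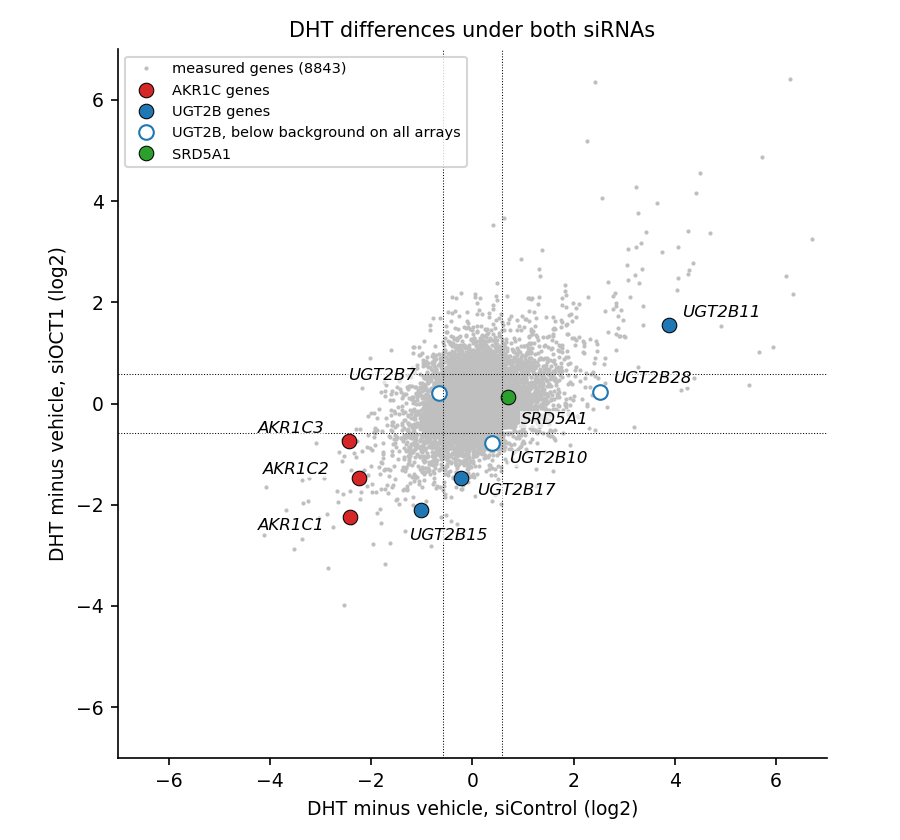
Log2 difference of DHT minus vehicle in siControl cells (x axis) against siOCT1 cells (y axis), 1 grey point for each of 8843 measured genes, coloured points for the members, open where a member was below background on all arrays, and dotted lines at 1.5-fold. The AKR1C genes lie at -2.25 to -2.43 on the x axis, where AKR1C3 was below background on both arrays, and UGT2B11 lies at 3.89, while SRD5A1 lies near the centre.

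The change of the DHT response, that in siOCT1 cells minus that in siControl cells, is 1 value per gene with no residual. It was 0.18 for AKR1C1, 0.78 for AKR1C2, 1.69 for AKR1C3 and -0.57 for SRD5A1. For UGT2B15 it was -1.10, for UGT2B17 -1.25, for UGT2B11 -2.34, for UGT2B28 -2.29, for UGT2B10 -1.17 and for UGT2B7 0.87. For AKR1C2 and SRD5A1, which had signal on all arrays, the difference was smaller in size with siOCT1. For the other genes at least 1 array was below background, so the value mixes response and background. UGT2B7, UGT2B10 and UGT2B28 were below background on every array.

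Other enzymes of androgen metabolism did not share the AKR1C pattern. Of 13 genes of androgen synthesis and activation, 10 had a named probe set and 4 were measured, with medians of -0.88 in vehicle and -0.12 in DHT, beside -0.06 and -0.07 over all measured genes. None of the 4 was past 1.5-fold in both ligand states, and 3 were lower in vehicle, beside the 28.7% above, STS among them with both arrays below background. CYB5A, the cytochrome b5 that aids the lyase step of androgen synthesis, differed by -0.92 and -0.32, and the ferredoxin gene FDX1 by -0.94 and 0.09. STS, the sulfatase that frees DHEA from its sulfate, had signals of 6.08, 7.42, 5.23 and 7.75 in the order given above, above background on both DHT arrays alone. STAR, the mitochondrial cholesterol carrier, was above background on the siControl vehicle array alone, at 6.92. CYP17A1, HSD3B1, HSD3B2, HSD17B3 and SRD5A2, further enzymes of androgen synthesis and 5-alpha reduction, were below background on every array.

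Of 16 other hydroxysteroid oxidoreductases, 15 had a probe set and 6 were measured, with medians of -0.13 and -0.23 and 2 genes lower in both ligand states, beside the 18.7% above. HSD17B7, a 17-beta-reductase that also serves cholesterol synthesis, differed by -0.87 and -1.01. HSD11B2, which inactivates cortisol, had signals of 5.91, 8.16, 4.97 and 5.57 and was at least 2.38-fold lower with siOCT1 in DHT, with both vehicle arrays below background. HSD17B11 differed by 1.10 in vehicle and 0.18 in DHT, and HSD17B4, the peroxisomal enzyme of fatty acid oxidation, by -0.20 and -0.38.

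The supply of the UGT substrate was measured in full, with all 7 genes above background on every array and medians of -0.12 and -0.03. UGDH, which makes UDP-glucuronate, differed by only -0.12 and -0.03. SLC35D2, a nucleotide sugar transporter, had signals of 8.98, 8.46, 11.25 and 10.90 and was 4.84-fold and 5.43-fold higher with siOCT1, the 1 gene of the list higher in both ligand states. SLC35B1, a transporter of the endoplasmic reticulum membrane, was the 1 gene lower in both, at -1.55 and -0.90. GUSB, the lysosomal glucuronidase that reverses the UGT reaction, differed by -0.40 and -0.89, and NUDT14, a UDP-glucose hydrolase, by 0.04 and 0.67.

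Among the 10 other aldo-keto reductases, 7 had a probe set and 1 was above background on any array, AKR7A2, an aldehyde reductase, at -0.53 and -1.16. Of 16 other UGT genes 4 had a probe set and 1 had signal, the galactosylceramide synthase gene UGT8, at -0.98 and -0.48. Of 7 genes of steroid sulfation 6 had a probe set, and the 4 sulfotransferases among them were below background, while PAPSS1, which makes their sulfate donor, was higher by 1.03 and 0.90. Of 12 transporters 11 had a probe set and 1 was measured, the efflux pump gene ABCC4, with signals of 5.47, 7.29, 4.55 and 5.42 and a difference of -1.87 in DHT that was at least 1.30-fold.

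AKR1C genes are textbook targets of the oxidative stress factor NRF2, and other NRF2 targets were split. Of 16 such genes 14 had a probe set and 13 were measured. With siOCT1, 4 were higher and 5 lower in both ligand states, beside 12.2% and 18.7% of measured genes, and the medians were -0.72 and -0.32. HMOX1, the inducible haem oxygenase, had signals of 6.13, 5.10, 10.10 and 8.80, a layout like that of the AKR1C genes. FTL, the ferritin light chain, was higher by 1.47 and 1.23, whereas GCLM, a subunit of glutathione synthesis, differed by -1.81 and -1.25 and OSGIN1, below background on both siOCT1 arrays, by -1.10 and -1.17, the latter with a bound of only 1.21-fold. Of 13 transcription factors tied to these promoters 7 had a probe set and 4 had signal, with 1 list member higher and 1 lower in both ligand states, beside the 12.2% and 18.7% above. The higher one was PPARA, a lipid-sensing nuclear receptor, at 0.93 and 0.73 but below background on every array. NFE2L2, which encodes NRF2, differed by 0.75 and -0.15, its inhibitor KEAP1 by -1.03 and -0.70, and BACH1, a repressor at NRF2 sites, by 1.21 and 0.10. FOXA1, the forkhead factor of prostate and liver, differed by 0.39 and 0.35.

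**Figure D5:**
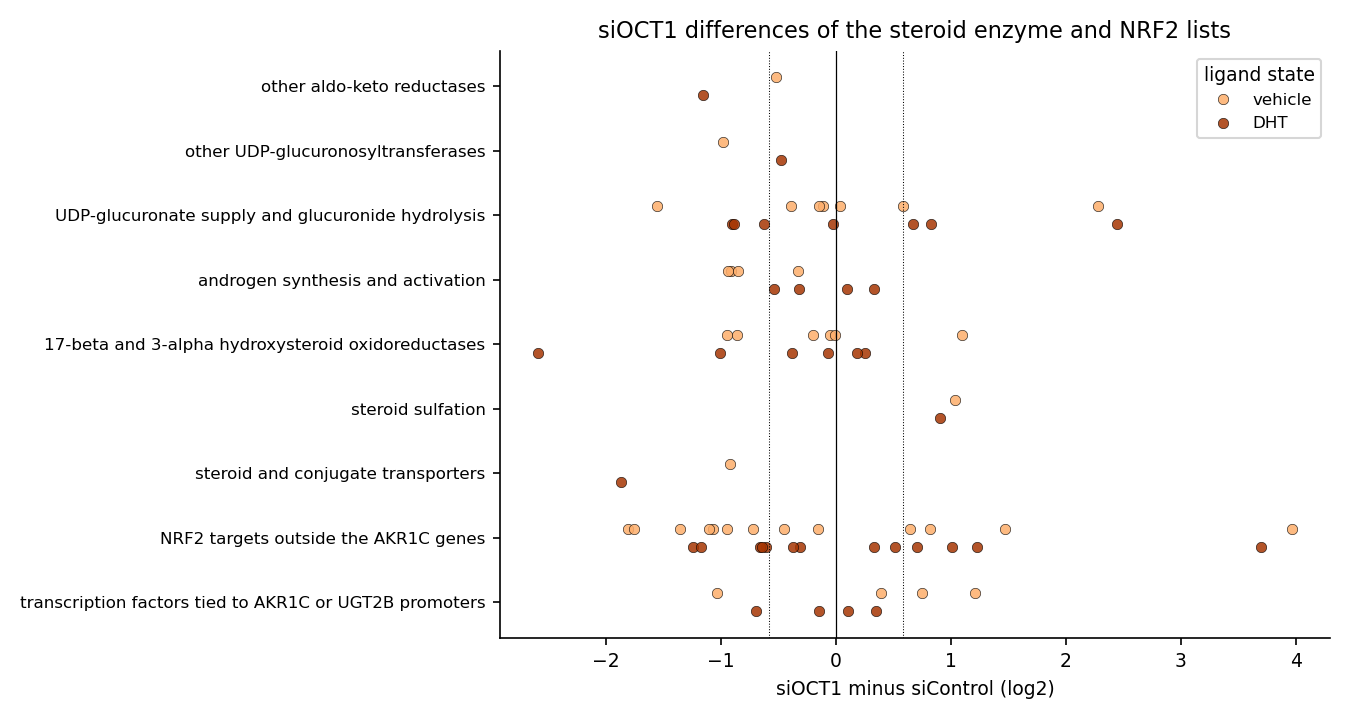
Log2 difference of siOCT1 minus siControl (x axis) for genes of 9 lists (y axis) that were above background on at least 1 array, light points in vehicle and dark points in DHT, with dotted lines at 1.5-fold. Most points lie between -2 and 2, and the rightmost pair is HMOX1 at 3.97 and 3.69.

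Likeness of profile was ranked among 8367 candidate genes outside the members and above background on at least 1 array. The 5 nearest to the AKR1C mean over the 4 arrays began with A1CF, an RNA-binding protein gene, at a distance of 0.72. HMOX1 followed at 1.19, LRRTM1 at 1.25, EDIL3 at 1.48 and then DDIT4L. Of these candidates, the 5 nearest to UGT2B15 were HMOX1 at 0.66, LRRTM1 at 0.77, A1CF at 0.98, SH3RF1 at 1.17 and SATB1 at 1.19. Among the members left out of the ranking, AKR1C1 at 1.03 and AKR1C2 at 1.06 were nearer to UGT2B15 than SH3RF1 and SATB1. The first 3 genes of both rankings were A1CF, HMOX1 and LRRTM1. A1CF and HMOX1 had signal on the siOCT1 arrays alone and LRRTM1 on the siOCT1 vehicle array alone, so their distances include values below background. Of the named genes EDIL3, DDIT4L and SH3RF1 had signal on all 4 arrays, and EDIL3, an extracellular matrix protein gene, had signals of 10.47, 7.79, 13.07 and 11.34.

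AKR1C and UGT2B genes are prominent in liver and gut, so markers of both tissues were read beside them. Of 10 hepatocyte markers with a probe set, 9 were below background on every array, among them APOA1, APOB, TTR, FGA and SERPINA1. The exception was albumin (ALB), with signals of 11.04, 9.36, 13.35 and 11.59, higher with siOCT1 and lower with DHT like the AKR1C genes. Of 8 enterocyte markers 6 were below background on every array, CDX2, FABP1 and FABP2 included, while sucrase-isomaltase (SI) had 6.17, 3.64, 11.97 and 8.002 and villin (VIL1) had 7.36, 5.22, 7.95 and 6.64. SI, VIL1 and CDH17 were higher with siOCT1 and lower with DHT by 1.5-fold in all 4 comparisons. Counted separately, 12.2% of measured genes were higher in both ligand states and 4.37% lower under both siRNAs. The share that met all 4 comparisons at once was not computed. CDH17 was below background on every array, SI on both siControl arrays and VIL1 on both DHT arrays, so some of these comparisons had no signal. Summed log2 signals of the 10 hepatocyte markers ranged from 38.1 to 39.2 with siControl and from 40.5 to 42.9 with siOCT1, and of the 8 enterocyte markers from 31.7 to 37.6 and from 41.0 to 46.5. Single genes carried much of these sums, since ALB alone differed by 2.31 and 2.22 with siOCT1 and SI by 5.80 and 4.36. The part of other cells in the results was not tested. All 9 prostate luminal markers with a probe set were above background on at least 1 array, FOXA1, HOXB13, KRT8, KRT18, EPCAM and CDH1 on all 4. The 2 basal and 4 immune markers were below it throughout, and COL1A2 alone of 4 stromal markers touched it, on the siControl vehicle array. SLC45A3, an androgen-induced prostate gene, had signals of 5.34 and 5.81 in vehicle and 11.63 and 12.21 in DHT, higher with DHT under both siRNAs. KLK2, an androgen-induced kallikrein, had signals of 7.04, 8.37, 4.13 and 6.78, above background on both siControl arrays alone. On the deposited values it was the 1 luminal marker lower with siOCT1 by 1.5-fold in both ligand states. In DHT KLK2 was at least 2.75-fold lower. In vehicle no fold can be given, since its siControl signal lay below the siOCT1 array's background of 7.39. Of the 9 luminal markers 4 were higher with DHT by 1.5-fold under both siRNAs, beside 4.86% of measured genes. HOXB13 and CDH1, 2 of the 9, were lower, beside 4.37%. KLK2 was among the 4 higher markers, with both siOCT1 arrays below background.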

How the data were processed

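Total RNA of 4 cultures was labelled with a whole-transcript kit and read on 1 array each. The deposited values are taken as log2 signals, from their range. The submitters' processing notes name RMA and Affymetrix Expression Console, without versions. RMA gives all arrays 1 distribution of signal, which hides any overall change in RNA content. No source used here gives the genome build of the probe sets.

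Of 24351 probe sets, 17709 carried 1 gene symbol and 0 several in the platform table, and 3739 were unnamed here beside the controls. A gene with several probe sets was read from that of highest mean. Differences of single arrays were computed with no test and no p-value. The members, gene lists and motifs were chosen with earlier results of these data known. Genes named in the text are all members, up to 4 genes with signal per list with the largest mean siOCT1 difference, those past 1.5-fold in both ligand states where 4 or fewer, and the 5 nearest profiles; other genes named were chosen after their values were seen. Alternatives were a 2-fold rule, 3 background floors, centring on 2197 positive controls or by loess, 32 added before the logarithm, the mean of probe sets, and other filters on dim genes. The counting was tested on simulated data. Upstream windows were aligned pairwise end to end with free end gaps in Biopython 1.88, with Python 3.11.15, numpy 2.4.6, pandas 2.3.3 and statsmodels 0.14.6 for the rest.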

Additional observations from a re-analysis of the deposited data

Results flagged for a closer look

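UGP2, which makes UDP-glucose for the UGT substrate, differed in opposite directions in the 2 ligand states, by 0.59 with siOCT1 in vehicle and by -0.63 in DHT. Its signals were 7.97 with siControl in vehicle, 9.09 with siControl in DHT, 8.56 with siOCT1 in vehicle and 8.46 with siOCT1 in DHT, all above background. Both sizes barely passed 1.5-fold, each on a single pair of arrays, and the difference between them was not tested.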

How the results depend on the processing

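No paired analysis was possible because each group held 1 array, which also leaves no replicate to leave out. With each array's own background as a floor, the 6 genes higher with siOCT1 in vehicle became 9. UGT2B7, UGT2B10, UGT2B11 and UGT2B28 then each differed by 0.77, only the gap between the vehicle backgrounds of 7.39 and 6.62, which itself passes 1.5-fold. In DHT the 5 higher with siOCT1 became 4 and the 2 lower became 1. The 5 lower with DHT in siControl became 1, and the 1 higher with DHT in siOCT1 became 0. For the change of the DHT response 3 higher and 5 lower became 1 and 8. Under that floor signs turned for UGT2B17 with siOCT1 in DHT (-0.083), for AKR1C3, UGT2B15 and UGT2B7 with DHT in siControl (0.37 each) and for UGT2B11 with DHT in siOCT1 (-0.49), values that are only the difference of the floors, and in the change of the DHT response for AKR1C3 (-1.11) and UGT2B7 (-0.85). With the highest background as a common floor, 4 genes were higher with siOCT1 in vehicle and 4 in DHT. The other counts were 1 lower with siOCT1 in DHT, 1 lower with DHT in siControl and 0 higher with DHT in siOCT1. For the change 1 was higher, and AKR1C3 turned to -0.74. With the highest 99th percentile of the controls as a floor, 3 genes were higher with siOCT1 in vehicle, 1 higher and 0 lower in DHT, 0 higher and 0 lower with DHT in siControl, 0 higher and 3 lower with DHT in siOCT1, and 0 higher and 3 lower for the change, where AKR1C2 turned to -1.47. Under that 99th percentile floor the siOCT1 difference of AKR1C3 was 0 in both ligand states. Those of AKR1C1 and UGT2B15 were 1.77 and 0.73 in vehicle and 0 in DHT. AKR1C2 kept 4.09 in vehicle and 2.62 in DHT. Adding 32 left 3 lower with DHT in siControl and 1 higher for the change, and the 2-fold rule left 1 higher for the change. Over all genes 18.8% were lower with siOCT1 in vehicle. Loess and positive-control centring moved no member's value by 1.5-fold, and centring on the positive controls raised siOCT1 differences in vehicle by 0.21 and DHT differences in siControl by 0.15.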

Other observations

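Several genes of steroid handling shared the layout of UGT2B11, with their highest signal on the siControl DHT array and lower signal once siOCT1 was present, and these genes were chosen after their values were seen. HSD11B2 reached 8.16 there against 4.97 to 5.91 on the other arrays, ABCC4 reached 7.29 against 4.55 to 5.47, and PAPSS2, a maker of the sulfate donor, reached 5.57 against 3.05 to 3.57, below background throughout. Profiles near that of UGT2B11 were ranked among 8367 genes outside the members. The nearest were PCDH20 at a distance of 0.73, SLC43A1 at 0.76, TSC22D1 at 0.83, ELOVL2 at 0.85 and HOMER2 at 0.88. TSC22D1 had signal on all arrays, at 11.27 with siControl in vehicle, 14.15 with siControl in DHT, 10.76 with siOCT1 in vehicle and 12.25 with siOCT1 in DHT. The peak that these genes share rests on 1 array, and a fault of that array was not tested. TSC22D1 and HOMER2, with signal on all arrays, were also higher with DHT in siOCT1 cells, by 1.49 and 2.45. The other genes named here had a siOCT1 array below background.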
